A study of Mus musculus with 8 samples.

Results

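Hypoxia-inducible factors (HIFs) switch on genes that adapt a tissue to low oxygen, and the set described here holds the genes of this response that do not encode glycolytic enzymes or glucose transporters. It consists of 10 genes chosen by name: *Hif1a*, *Epas1*, *Egln1*, *Egln3*, *Vegfa*, *Ndrg1*, *Ddit4*, *Bnip3*, *Ankrd37* and *Stc2*. They were chosen with earlier results of these data known. All 10 were found among the 33971 genes of the deposited table, and all 10 were among the 19367 genes with enough reads to be tested. WT females were mated with WT males and received a choline-deficient diet (CDD) or normal chow (ND) from the mating day, and polyadenylated RNA was sequenced from whole brains of their embryos at E14.5, 4 brains for each diet. The labels give no transgene or deletion in any of these embryos. How many dams or litters gave the embryos is not given, so p-values measure the spread between embryos that may share a litter. The question put to these brains by the study was whether a maternal lack of choline changes brain gene expression the way loss of the choline transporter MFSD7c does.

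HIF is a pair of proteins, an oxygen-regulated alpha subunit (HIF-1α from *Hif1a*, HIF-2α from *Epas1*) and a stable partner from *Arnt* or *Arnt2*. In the presence of oxygen, prolyl hydroxylases encoded by the *Egln* genes modify the alpha subunit, which is then bound by the VHL protein and degraded. This control acts on the protein, so the mRNA of an alpha subunit says little about HIF activity, whereas the mRNA of target genes is read as its output. In the embryonic brain the pathway is best known for *Vegfa*, through which neural progenitors attract growing blood vessels.

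HIF binds a short core sequence, ACGTG or GCGTG. The upstream sequences of *Egln3* and *Ddit4*, 2 of the 3 genes that differ between the diets, are shown. The third, *Ndrg1*, had no promoter window in the source used, so its upstream sequence was not examined. The windows are from RefSeq on GRCm38.p6, on the minus strand, written 5′ to 3′ from 250 to 101 bases before the start site, with capitals for every ACGTG or GCGTG on either strand.
Egln3, chr12:54203975-54204124: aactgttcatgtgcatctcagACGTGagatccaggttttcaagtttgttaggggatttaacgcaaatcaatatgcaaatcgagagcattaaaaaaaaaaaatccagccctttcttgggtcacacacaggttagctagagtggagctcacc
Ddit4, chr10:59951871-59952020: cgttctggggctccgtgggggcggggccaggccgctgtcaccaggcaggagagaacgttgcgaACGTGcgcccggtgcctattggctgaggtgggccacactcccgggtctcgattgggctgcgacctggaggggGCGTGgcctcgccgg
*Egln3* held 1 ACGTG and no GCGTG in its window of 300 bases, and *Ddit4* held 1 of each. Of the 10 genes, 8 had a promoter window (9 windows, since *Vegfa* had 2), and *Epas1* and *Ndrg1* had none. Each of the 8 held ACGTG or GCGTG in a window, *Vegfa* in only 1 of its 2. The more upstream *Vegfa* window (46032328 to 46032627) held neither. The *Vegfa* matches were in the window downstream of it (46025114 to 46025413), so none lay at the more upstream start site. Which of the 2 start sites is used in these brains was not examined. Counted by window and not by gene, ACGTG or GCGTG was present in 43.8% of all 32851 promoter windows, ACGTG in 19.6% and GCGTG in 32.4%. ACGTG was counted on both strands, so the palindrome CACGTG, which was present once in *Hif1a* and once in *Bnip3*, counts as 2 overlapping matches. *Hif1a* held 3 ACGTG matches, 2 of which are its palindrome counted on both strands, and *Stc2* held GCGTG only. These are matches of letters in a short window and were not tested as sites of binding.

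The counts assigned to genes summed to 31770217 to 43121170 per brain. *Tubb3* and *Dcx* of neurons and *Vim* and *Nes* of progenitors were abundant in both diets. CDD replicate 2 stood apart by 142.5 CPM on Hox genes, which mark caudal hindbrain and spinal cord, against 0.474 to 3.42 in the other brains. ND replicate 3 stood apart by 2897 CPM on adult globin genes, against 590.4 to 1563 in the other brains. For *Ndrg1*, *Egln3*, *Ddit4*, *Hif1a* and *Vegfa*, values with both brains left out are given as well. Expression is given as CPM, the read count of a gene after every library was scaled by TMM to the same total, and log2 fold changes are CDD over ND from edgeR's quasi-likelihood test, with Benjamini-Hochberg adjustment over all 19367 genes and an adjusted p-value under 0.05 as the threshold.

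Of the 10 genes, 3 were lower in CDD brains (*Ndrg1*, *Egln3* and *Ddit4*) and 0 were higher, and DESeq2 called the same numbers. Over all genes tested, 8.83% passed this threshold, 4.59% lower and 4.24% higher in CDD brains. Without adjustment, at p under 0.05, 5 of the 10 genes differed (*Ankrd37* and *Hif1a* in addition), where 23.9% of all genes did. The median log2 fold change of the 10 genes was -0.16, with 8 below 0, and that of all genes tested was -0.0038. CDD brains lay wholly below ND brains for 4 genes, the 3 above and *Vegfa*, as they did for 7.39% of all genes, and lay wholly above them for 0 of the 10, against 7.65% of all genes. As the 10 genes were chosen with earlier results known, their shares beside those of all genes are descriptions only. Without both CDD replicate 2 and ND replicate 3, a comparison of 3 brains with 3, no gene of the set passed the threshold in edgeR's test, 4 had an unadjusted p-value under 0.05, and 418 genes passed in all.

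**Figure D1:**
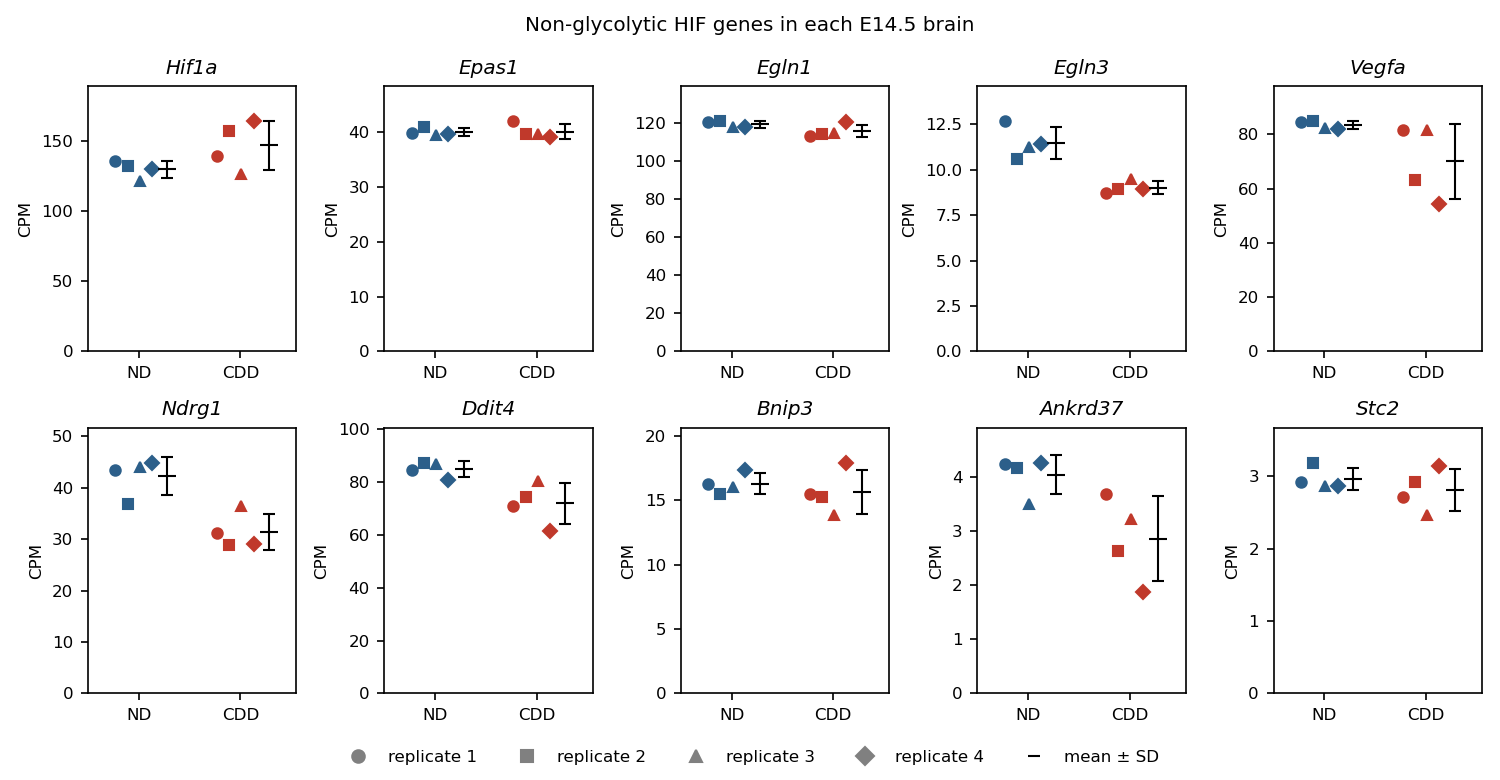
Expression of the 10 HIF genes in CPM (y axis, from 0) in each ND brain (blue) and CDD brain (red), with a symbol for each replicate number and the mean ± SD of 4 brains in black. *Ndrg1*, *Egln3*, *Ddit4* and *Vegfa* do not overlap between the diets, and *Vegfa* and *Ankrd37* are most spread among CDD brains.

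The sensors and regulators of the pathway are described first. *Hif1a* (ENSMUSG00000021109, chromosome 12, 73948149 to 73994304, as the authors list it on a build that is not named) was at 139, 157, 126 and 165 CPM in CDD replicates 1 to 4 and at 136, 132, 121 and 129.9 CPM in ND replicates 1 to 4. CDD replicates 1, 2 and 4 lay above every ND brain, replicate 1 only just, and CDD replicate 3 lay among the ND brains. The log2 fold change was 0.18 (standard error 0.072, 95% interval 0.021 to 0.33, edgeR adjusted p = 0.151). Without CDD replicate 3 it was 0.25 and passed the threshold (edgeR adjusted p = 0.00864), without CDD replicate 4 it was 0.12, and without CDD replicate 2 and ND replicate 3 together it was 0.11.

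*Epas1* (ENSMUSG00000024140, chromosome 17, 87061128 to 87140838), whose HIF-2α protein is prominent in blood vessels, was at 42.1, 39.7, 39.7 and 39.1 CPM in CDD and at 39.9, 41.0, 39.4 and 39.6 CPM in ND replicates 1 to 4. The diets overlapped throughout. Its log2 fold change was 0.00, with a 95% interval of -0.10 to 0.11. Per length, *Hif1a* was the more abundant alpha subunit, with an FPKM of 3.08 ± 0.125 times (SD, n = 4) that of *Epas1* in ND brains and 3.48 ± 0.472 times (SD, n = 4) in CDD brains. The log2 ratio of *Epas1* to *Hif1a* counts differed by -0.17 between the diets, a difference within the spread between brains (exact two-sided permutation test, p = 0.229, adjusted over 3 ratios p = 0.229), and was -0.10 without CDD replicate 4.

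*Egln1* and *Egln3* encode prolyl hydroxylases that mark HIF alpha subunits for destruction, *Egln1* the main oxygen sensor of most cells and *Egln3* an enzyme whose gene is itself strongly induced by HIF. *Egln3* (ENSMUSG00000035105, chromosome 12, 54225767 to 54250646) was at 8.69, 8.92, 9.50 and 8.93 CPM in CDD replicates 1 to 4 and at 12.7, 10.6, 11.2 and 11.4 CPM in ND replicates 1 to 4. Every CDD brain lay below every ND brain, and the CDD brains were close together. Its log2 fold change was -0.35 (standard error 0.082, edgeR adjusted p = 0.0141), a level 21.4% lower in CDD brains. The call was lost without ND replicate 1 (adjusted p = 0.0722 with edgeR) or ND replicate 4 (adjusted p = 0.050 with edgeR), and without CDD replicate 2 and ND replicate 3 together (adjusted p = 0.0834 with edgeR).

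*Egln1* (ENSMUSG00000031987, chromosome 8, 125635326 to 125676063) was at 113, 114, 115 and 121 CPM in CDD and at 121, 121, 118 and 118 CPM in ND replicates 1 to 4. It varied least of the 10 genes among ND brains, with a coefficient of variation of 1.52%, and its log2 fold change was -0.05 (95% interval -0.13 to 0.035). The log2 ratio of *Egln3* to *Egln1*, which needs no scaling of libraries, was -3.68 ± 0.065 (SD, n = 4) in CDD brains against -3.38 ± 0.11 (SD, n = 4) in ND brains. All 4 CDD brains lay below all 4 ND brains in this ratio (exact two-sided permutation test, p = 0.0286, the smallest possible with 4 brains against 4). The adjusted p-value over 3 ratios was 0.0857 (exact). With so few brains, the adjusted value could be under 0.05 only if another ratio was fully apart as well. The *Egln2* gene of the same family had a log2 fold change of -0.01 and did not pass the threshold.

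Among 13 other genes of oxygen sensing and HIF partners (*Arnt*, *Arnt2*, *Hif3a*, *Egln2*, *Hif1an*, *Vhl*, *Elob*, *Eloc*, *Cul2*, *Rbx1*, *Cited2*, *Crebbp* and *Ep300*), 0 passed the threshold with edgeR and 0 with DESeq2. One had an unadjusted p-value under 0.05, *Hif1an*, the asparaginyl hydroxylase that blocks the HIF activation domain, with a log2 fold change of 0.13 (edgeR adjusted p = 0.119). The 13 log2 fold changes lay between -0.12 and 0.13, with a median of 0.02.

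**Figure D2:**
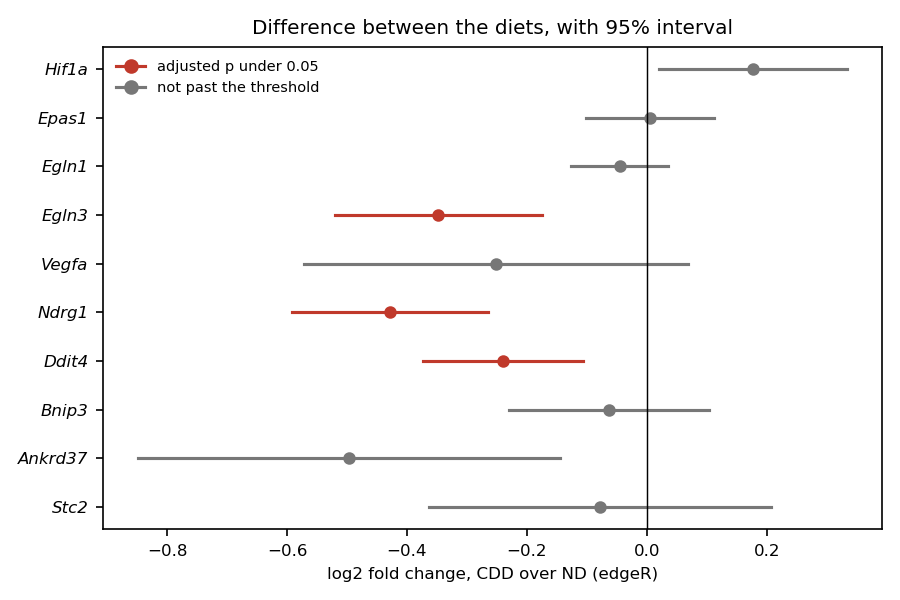
Log2 fold change of CDD over ND (x axis) of each HIF gene in edgeR's fit over all genes, as a point with its 95% interval, red where the adjusted p-value is under 0.05. *Ndrg1*, *Egln3* and *Ddit4* are red and to the left of 0, the intervals of *Epas1* and *Egln1* are narrow and include 0, and *Hif1a* lies to the right.

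*Vegfa* (ENSMUSG00000023951, chromosome 17, 46327919 to 46343295) encodes the secreted growth factor that directs brain vessels. It was at 81.6, 63.1, 81.5 and 54.2 CPM in CDD replicates 1 to 4 and at 84.4, 85.1, 82.3 and 82.1 CPM in ND replicates 1 to 4. The ND brains were nearly equal, CDD replicates 1 and 3 lay just below them, and CDD replicates 2 and 4 were far lower. The coefficient of variation was accordingly 1.79% in ND and 19.6% in CDD brains, and the log2 fold change of -0.25 was not past the threshold (95% interval -0.57 to 0.069, edgeR adjusted p = 0.323). Without CDD replicate 4 it was -0.15, and without CDD replicate 2 and ND replicate 3 together it was -0.21.

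*Kdr*, the main receptor of *Vegfa* on endothelial cells, had a log2 fold change of -0.05 (edgeR adjusted p = 0.555). The log2 ratio of *Vegfa* to *Kdr* counts was between 0.29 and 0.42 in ND brains, at 0.36 and 0.32 in CDD replicates 1 and 3, at 0.09 in CDD replicate 2 and at -0.24 in CDD replicate 4. The mean ratio was lower by 0.22 in CDD brains, a difference that did not pass the test (exact two-sided permutation test, p = 0.171, adjusted over 3 ratios p = 0.229), and it was lower by 0.09 without CDD replicate 4. Of 9 other VEGF ligands and receptors, 0 passed the threshold with edgeR or DESeq2, and 1, the co-receptor *Nrp1*, had an unadjusted p-value under 0.05, with a log2 fold change of -0.13 (edgeR adjusted p = 0.0921).

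Summed markers of vessel cells were lower in every CDD brain than in every ND brain, by a narrow margin for the endothelial sum. Of 9 endothelial markers, 7 had a log2 fold change below 0 and 1, the tight junction gene *Cldn5*, passed the threshold. *Cldn5* had a mean of 52.5 CPM in CDD and 63.6 CPM in ND brains, and weighs heavily in the endothelial sum. *Pecam1* and *Emcn* had log2 fold changes above 0 and did not pass. Of 7 mural markers, 7 were below 0 and 2 passed, the pericyte genes *Rgs5* and *Vtn*, at a median of -0.20. The summed endothelial markers were at 202.1 to 222.4 CPM in CDD and at 223.6 to 240.9 CPM in ND brains, and the summed mural markers at 210.6 to 222.0 and 229.3 to 249.8 CPM. None of these markers was at 0 in every brain. In bulk RNA, fewer cells of a type and less RNA per cell cannot be told apart, and the part of vessel cells in the values of *Vegfa*, *Epas1* or the other HIF genes was not tested.

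*Ndrg1* (ENSMUSG00000005125, chromosome 15, 66801167 to 66841489), a long-used hypoxia-inducible gene whose product is needed for peripheral myelin, had the smallest p-value of the 10 genes. It was at 31.2, 28.9, 36.5 and 29.0 CPM in CDD replicates 1 to 4 and at 43.4, 36.9, 44.1 and 44.9 CPM in ND replicates 1 to 4. The diets did not overlap, although the highest CDD brain, replicate 3, was nearly level with the lowest ND brain, replicate 2. The log2 fold change was -0.43 (standard error 0.078, edgeR adjusted p = 0.00344), a level 25.7% lower in CDD brains. The call held in 8 of 8 fits with 1 brain left out, at log2 fold changes of -0.51 to -0.39, and was lost without CDD replicate 2 and ND replicate 3 together (-0.37, adjusted p = 0.0504 with edgeR).

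*Ndrg1* has 3 paralogs, all of them abundant in neural tissue. *Ndrg4* was at 173, 193, 192 and 157 CPM in CDD and at 218, 208, 237 and 227 CPM in ND replicates 1 to 4, with no overlap and a log2 fold change of -0.32 (edgeR adjusted p = 0.00507). *Ndrg3* also fell, by 0.16 on the log2 scale (edgeR adjusted p = 0.0172), whereas *Ndrg2*, an astrocyte and radial glia gene, had a log2 fold change of -0.05 (edgeR adjusted p = 0.496). Whether the 4 *Ndrg* genes differ from each other in their change was not tested. Of 8 paralogs of the whole set (*Hif3a*, *Egln2*, *Bnip3l*, *Ddit4l*, *Ndrg2*, *Ndrg3*, *Ndrg4* and *Stc1*), *Ndrg3* and *Ndrg4* were the 2 that passed, both lower.

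*Ddit4* (ENSMUSG00000020108, chromosome 10, 59785491 to 59787656) encodes REDD1, an inhibitor of mTORC1 that is induced by hypoxia and by other stresses, among them glucocorticoids and amino acid shortage. It was at 71.0, 74.5, 80.5 and 61.7 CPM in CDD replicates 1 to 4 and at 84.8, 87.4, 86.9 and 80.9 CPM in ND replicates 1 to 4. The diets did not overlap, but CDD replicate 3 was nearly level with ND replicate 4. Its log2 fold change was -0.24 (standard error 0.063, edgeR adjusted p = 0.0276), a level 15.3% lower in CDD brains. This was the least stable of the 3 calls, which held in 4 of 8 fits with 1 brain left out and was lost without CDD replicate 1 (adjusted p = 0.0650 with edgeR), ND replicate 1 (0.0719), ND replicate 2 (0.0606) or ND replicate 3 (0.0916), and without CDD replicate 2 and ND replicate 3 together (0.131). The paralog *Ddit4l* had a log2 fold change of 0.11 (edgeR adjusted p = 0.709).

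*Bnip3* (ENSMUSG00000078566, chromosome 7, 138492565 to 138511248) encodes a receptor of the outer mitochondrial membrane that targets mitochondria for autophagy. It was at 15.5, 15.2, 13.8 and 17.9 CPM in CDD and at 16.3, 15.4, 16.0 and 17.4 CPM in ND replicates 1 to 4. The diets overlapped, with CDD brains at both ends of the range. Its log2 fold change was -0.06 (95% interval -0.23 to 0.10), and that of its paralog *Bnip3l*, which acts in mitophagy as well, was 0.13 (edgeR adjusted p = 0.112).

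*Ankrd37* (ENSMUSG00000050914, chromosome 8, 46449939 to 46458744), a small ankyrin-repeat gene known as a direct HIF-1 target, was at 3.68, 2.64, 3.23 and 1.87 CPM in CDD and at 4.24, 4.16, 3.5 and 4.26 CPM in ND replicates 1 to 4. CDD replicate 1 lay above ND replicate 3, and the other CDD brains lay below every ND brain. Its log2 fold change of -0.50 was the largest in size among the 10 genes, with a wide 95% interval of -0.85 to -0.14, and was not past the threshold (edgeR adjusted p = 0.0720). It passed without CDD replicate 1 (adjusted p = 0.0392 with edgeR) or CDD replicate 3 (adjusted p = 0.0470 with edgeR). These values rest on 62 to 147 counts per brain, and the gene overlaps *Ufsp2* on the opposite strand, which had 697 to 872 counts, so its reads are uncertain where the counting did not use strand, which is not given in the sources used here.

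*Stc2* (ENSMUSG00000020303, chromosome 11, 31307307 to 31320074) encodes a secreted stanniocalcin induced by hypoxia and by stress of the endoplasmic reticulum. It was at 2.72, 2.93, 2.46 and 3.14 CPM in CDD and at 2.93, 3.19, 2.86 and 2.87 CPM in ND replicates 1 to 4, from 90 to 106 counts. The log2 fold change was -0.08, with a 95% interval of -0.36 to 0.21 that includes 0 and is wide beside this estimate.

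The order of the 10 genes by level per length was compared with the deposited FPKM values. In ND brains *Ddit4* was highest at 48.1 ± 1.66 FPKM (SD, n = 4), followed by *Egln1* at 33.0 ± 0.550, *Hif1a* at 21.9 ± 1.06 and *Vegfa* at 19.4 ± 0.374 FPKM. *Bnip3* (7.14 ± 0.352 FPKM) and *Epas1* (7.11 ± 0.132 FPKM) overlapped and could not be ordered. *Ndrg1* (6.37 ± 0.547), *Egln3* (4.28 ± 0.332), *Ankrd37* (2.61 ± 0.239) and *Stc2* (0.569 ± 0.0301 FPKM) followed. The order in CDD brains was the same, other than that *Epas1* (7.15 ± 0.208 FPKM) and *Bnip3* (6.87 ± 0.778 FPKM), which again overlapped, changed places. All other neighbours in this order were apart in every brain of a diet.

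The CDD brains differed among themselves more than the ND brains did for some of these genes, and in a shared way. CDD replicate 4 was the lowest of all 8 brains for *Vegfa*, *Ankrd37* and *Ddit4* and the highest for *Hif1a* and *Bnip3*. CDD replicate 2 came next to it for *Vegfa*, *Ankrd37* and *Hif1a*. CDD replicate 3 was nearest to the ND brains for *Ndrg1* and *Ddit4*. Pairs of genes were compared by deviations from the mean of each diet, so that the diet itself does not enter. Over the 8 brains, *Vegfa* and *Ankrd37* had a Pearson r of 0.93 and *Vegfa* and *Hif1a* one of -0.84. *Bnip3* and *Ddit4* had an r of -0.98, and *Ndrg1* and *Stc2* one of -0.92. *Vegfa* varied little among ND brains (coefficient of variation 1.79%, against 19.6% in CDD), so its 2 values rest mostly on the CDD brains. These are descriptions over 8 points that share library and scaling, chosen as examples among 45 pairs after their values were seen. CDD replicate 4 also had the lowest summed choroid plexus and endothelial markers (233.2 and 202.1 CPM) and the highest summed neuron and progenitor markers (7071 and 2039 CPM) of the 8 brains, and the part of these in the HIF values was not tested.

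**Figure D3:**
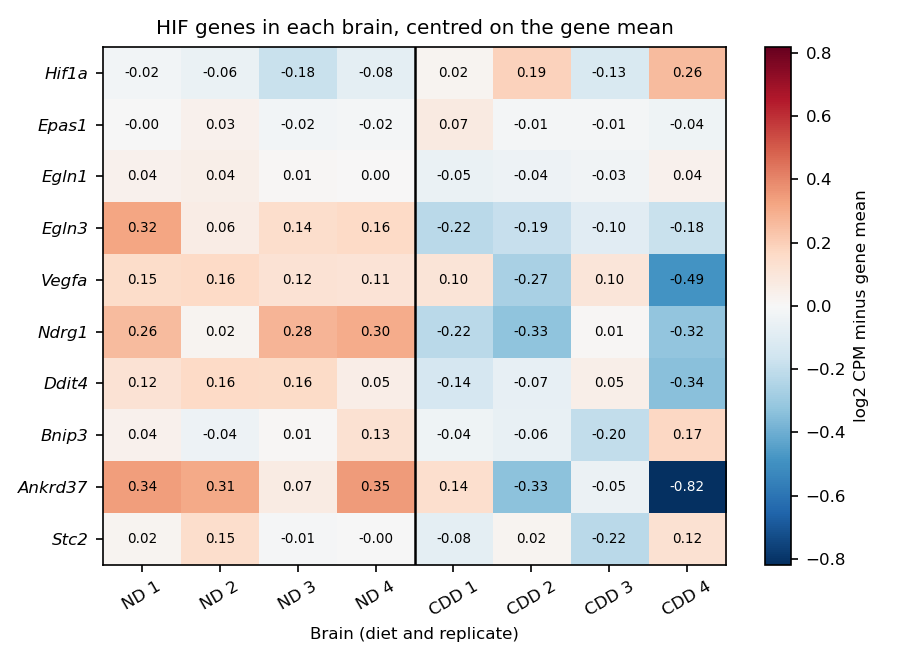
Log2 CPM of each HIF gene (rows) in each brain (columns, 4 ND on the left and 4 CDD on the right of the line), minus the mean of the gene over the 8 brains. CDD replicates 2 and 4 are blue for *Vegfa* and *Ankrd37* and red for *Hif1a*, whereas *Egln3* is blue in all 4 CDD brains.

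For the 3 genes that passed the threshold, the genes with the most similar pattern of log2 CPM were sought among the 15888 genes whose mean reached 1 CPM, by Pearson's r over the 8 brains, as a description that holds the difference between the diets as well. They were *Dusp6*, *Dync1i1* and *Tent4a* for *Ndrg1* (r of 0.996, 0.991 and 0.990), *Gpr12*, *9330121K16Rik* and *Edn3* for *Egln3* (0.981, 0.978 and 0.978) and *Ssbp4*, *Pacsin1* and *Ptpn5* for *Ddit4* (0.991, 0.990 and 0.987). No gene was shared between these 3 short lists.

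Other HIF targets outside glycolysis, on a list of 30 genes that includes *Adm*, *P4ha1*, *Plod2*, *Lox*, *Kdm3a*, *Higd1a*, *Hmox1* and *Mxi1*, were examined beside the set. Of these, 28 were tested, 1 rose (*Tfrc*) and 1 fell (*Igfbp3*), and the median log2 fold change was -0.08, with 17 below 0. *Igfbp3*, which encodes a binding protein of insulin-like growth factors, fell by 0.62 on the log2 scale (edgeR adjusted p = 7.78e-04). It was at 17.2 to 22.8 CPM in CDD and at 27.3 to 30.9 CPM in ND brains, with no overlap. *Tfrc*, the transferrin receptor, which is also abundant in erythroid and dividing cells, rose by 0.28 (edgeR adjusted p = 0.0151), with CDD replicate 3 at 82.6 CPM inside the ND range of 76.7 to 83.0 CPM. *Car9* and *Epo*, which are nearly silent without hypoxia, had too few reads to be tested, with 1 to 6 and 0 to 2 counts per brain.

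Of 18 glycolytic HIF targets tested, 4 were higher and 3 lower, with a median of 0.06. *Pgk1*, *Hk2* and *Aldoc* had the smallest p-values among those that rose (log2 fold changes of 0.23, 0.37 and 0.21), and *Pfkp*, *Slc2a3* and *Pfkfb3* were those that fell (-0.37, -0.28 and -0.18). A difference between these 18 genes and the 10 genes was not tested.

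**Figure D4:**
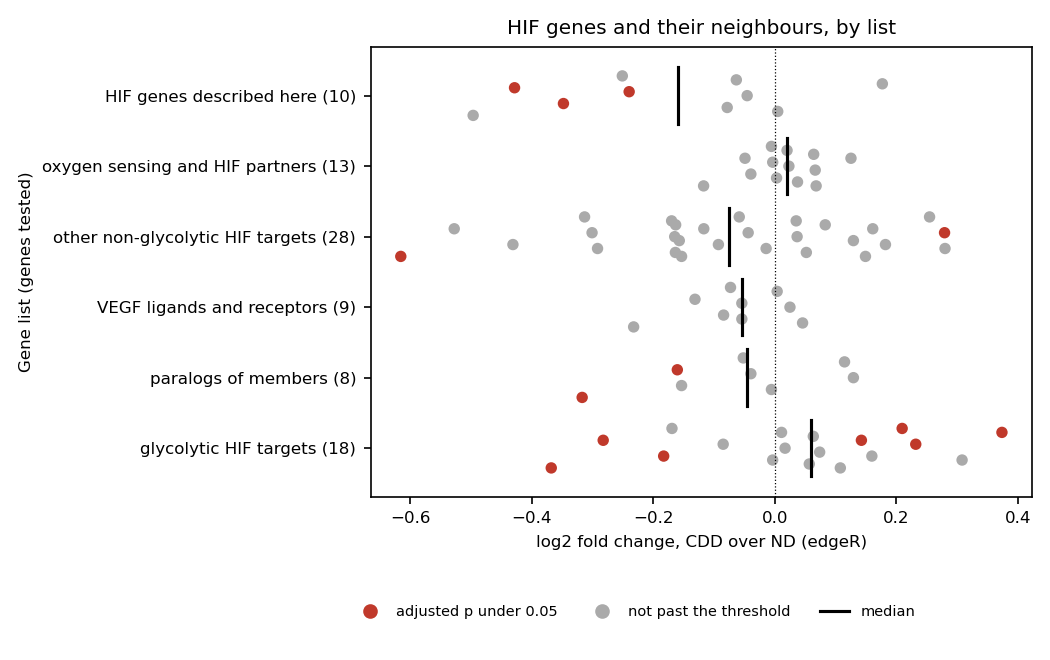
Log2 fold change of CDD over ND (x axis) of every tested gene of the HIF set and of 5 lists of related genes (rows, with the number of genes tested), red where the adjusted p-value of edgeR's test is under 0.05, with the median of each list as a black line. The medians run from -0.16 for the HIF set to 0.06 for the glycolytic targets, and no gene of oxygen sensing is red.

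Markers of other cells moved as well. Of 8 progenitor markers, 4 were higher (*Nes*, *Pax6*, *Vim* and *Mki67*) and 0 lower, with summed levels of 1789 to 2039 CPM in CDD and 1609 to 1707 CPM in ND brains. Of 8 neuron markers, 1, *Snap25* of mature synapses, was lower and 0 were higher, with overlapping sums. Of 8 microglia and macrophage markers, *Cd163* and *Mrc1* were lower and 0 higher. Of 6 choroid plexus markers, only *Otx2* was higher and 0 were lower. Their sums overlapped, at 233.2 to 545.9 CPM in CDD and 329.4 to 367.0 CPM in ND brains. Of 8 erythroid markers, the embryonic globin genes *Hbb-y* and *Hba-x* were higher and 0 lower. The part of such shifts in cell types in the lower levels of *Ndrg1*, *Egln3* and *Ddit4* was not tested.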

How the data were processed

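RNA of 8 whole E14.5 brains (4 CDD, 4 ND) was examined, grouped by maternal diet as the labels give it. For each gene and brain, the authors deposited the raw read count and FPKM values made from them with the gene length listed beside it. Per the labels, HISAT2 2.0.5, featureCounts 1.5.0-p3 and DESeq2 1.20.0 were among the tools, and the strand setting and genome build are not given in the sources used here. Of 32185 gene identifiers shared with GENCODE M21 (GRCm38), 2.14% have the same start, so gene positions are printed as listed and promoter positions as in RefSeq GRCm38.p6. The deposited columns of the authors' own comparison (fold change and p-values), their normalized values, and the shorter lists of genes chosen by it were not used.

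Counts were filtered with filterByExpr, scaled by TMM and tested with the robust quasi-likelihood test of edgeR 4.0.16 (R 4.3.3), with diet as the single term. Standard errors are the log2 fold change over the square root of F. Ratios of 2 genes used counts plus a prior of 2 and an exact two-sided permutation test. Counts cover sampling of reads, to which the spread between brains adds (common biological coefficient of variation 0.0814). No pair of libraries agreed within sampling noise (chi-square over its degrees of freedom, 3.53 to 27.5). CDD replicate 4 differed most from the ND brains, at 19.2 to 27.5, where pairs of other CDD brains with ND brains reached at most 16.6. It was kept in the fit without CDD replicate 2 and ND replicate 3. The 10 genes, the lists of related genes and the markers were chosen with earlier results of these data known. The genes named are these 10, the called genes of each list (at most 3 per direction with the smallest p-values), paralogs of called genes and the 3 genes most similar to each called gene; genes of a list with an unadjusted p-value under 0.05 where none passed, *Mki67*, *Kdr*, *Car9*, *Epo* and the genes that name a list were added after their values were seen. Alternatives were DESeq2 1.42.0, RLE and upper-quartile scaling, limma-voom (limma 3.58.1), no filter, a minimum of 10 counts in all 8 brains, a block for the replicate number, a covariate for *Xist*, leaving out each brain, CDD replicate 2 and ND replicate 3 left out together, an adjusted p-value under 0.01, and log2 of FPKM plus 1 with limma. For *Aldoa*, the identifier with more counts was used. Other steps ran in Python 3.11.15 with SciPy 1.17.1, NumPy 2.4.6 and pandas 2.3.3, and plots were drawn with matplotlib 3.10.9.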

Additional observations from a re-analysis of the deposited data

Results flagged for a closer look

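For the 10 genes and 3 ratios, each diet group of 4 brains was searched for an extreme brain by Dixon's gap test, which marks about 1 group in 20 by chance. Of the 26 groups searched, 2 had one, and 1.3 would be marked on average without any true outlier. The first was ND replicate 2 for *Ndrg1*, which had a log2 CPM of 5.21 and was the lowest of its diet, and the log2 fold change was -0.49 when this brain was left out and -0.43 with all brains. The second was ND replicate 3 for *Ankrd37*, which had a log2 CPM of 1.83 and was also the lowest of its diet, and the log2 fold change was -0.56 when this brain was left out and -0.50 with all brains.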

How the results depend on the processing

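All 10 genes kept their direction under DESeq2, RLE, upper-quartile, voom, both filters, the block, *Xist* and FPKM. The 1710 genes called between the diets became 519 with limma on log2 FPKM plus 1, 477 at an adjusted p-value under 0.01, 418 without CDD replicate 2 and ND replicate 3, and 471 to 2495 with 1 brain left out (471, 615 and 688 without ND replicates 3, 4 and 1). The 3 called HIF genes became 5 with no filter on low counts (with *Hif1a* higher and *Ankrd37* lower), 1 (*Ndrg1*) at an adjusted p-value under 0.01, 0 without CDD replicate 2 and ND replicate 3, and 1 to 5 with 1 brain left out (1 without ND replicate 1, 5 without CDD replicate 3). The 11 called genes of the 5 related lists became 6 with FPKM, 5 at 0.01, 3 without both brains, and 6 to 14 with 1 left out (6 without ND replicates 1, 3 or 4). *Ddit4* was not called with FPKM (adjusted p = 0.0837 with limma). The 3 ratios kept their direction with each brain left out. *Epas1*, at a log2 fold change near 0, changed sign without CDD replicate 1 or ND replicate 3. The deviations of brains with the same replicate number had an r of 0.105, -0.133, 0.117 and 0.232 for numbers 1 to 4. CDD replicates 1, 3 and 4 correlated best with the ND brain of their own number, and CDD replicate 2 with ND replicate 4 (0.214). The margin was small for CDD replicates 1 and 3, which had an r of 0.0974 and 0.0923 with ND replicate 2. This is at most a weak hint of pairing in 3 of 4 numbers and was not tested. As number 2 did not follow this pattern and the labels state no shared litter or batch, the numbers were not taken as pairs. With the replicate number as a block, 1812 genes, 4 HIF genes (*Hif1a* in addition, adjusted p = 0.0391 with edgeR) and 12 related genes were called, and in the sign-flip test of the ratios over replicate numbers the smallest exact p-value possible was 0.125.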
